A study of Mus musculus with 4 samples.

Results

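The 10 genes of NADPH supply, quinone reduction and the thioredoxin system were followed on 4 microarrays of mouse marrow cells grown with GM-CSF and given heme or its vehicle. The genes were Me1, Idh1, Pgd, Taldo1 and Tkt, whose enzymes make cytosolic NADPH or run the pentose phosphate pathway, the quinone reductase gene Nqo1, and Txn1, Txnrd1, Prdx1 and Srxn1 of the thioredoxin system. They were chosen by name, with earlier results of these data known. Each was read by the brightest probe set whose only annotated symbol was that gene. All 10 were found among the 19938 genes with such a probe set.

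Marrow of wild-type mice, Bach1 (+/+), and of mice labelled Bach1 (-/-), both of the B6 background, was cultured with 20 ng/ml GM-CSF for 6 days and then received 40 µM heme (µm in the labels) or vehicle, which was 0.15 M NaCl with 10% NH4OH. Adherent cells were taken for RNA 24 hours later, from medium with 10% serum. The 4 groups held 1 array each, so the differences below have no replicate check, no error and no p-value, and the number of arrays limits their precision. The labels give neither the number of mice nor the kind of Bach1 allele.

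Median signals lay between 30.4 and 31.4 and highest signals between 15149 and 16004, a likeness that the quantile step of RMA sets. The Bach1 probe set read 212 and 264 in wild type (vehicle, heme) and 211 and 204 in the labelled knockout, so it did not separate the genotypes. Because the place of the probes with respect to the deletion is unknown here, this signal checks nothing, and these arrays are called labelled knockout. Hmox1, a gene repressed by Bach1, read 1827 and 9881 in wild type and 9047 and 10330 in the labelled knockout.

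The cells carried macrophage transcripts: 7 of 7 measured macrophage markers were at level on every array, where at level means a signal at or above the median of all values, 30.96. Their summed signal lay between 17447 and 18694, of which Lyz2 made up 9990 to 10705. Within the list, Fcgr1 read 237 and 83.3 in wild type (vehicle, heme) and 84.7 and 59.7 in the labelled knockout, and Mertk read 628 and 412 and then 590 and 469, so both were lower with heme. Neutrophil markers summed to 9129 in vehicle and 12411 with heme in wild type and to 7266 and 9706 in the labelled knockout, with 8 or 9 of 10 at level. Of these sums S100a8 made up 3213 to 5613 and S100a9 2933 to 5186. Single markers did not all follow the sums: 7 of 10 were higher in the labelled knockout in vehicle, and 3 of 10 with heme. Dendritic cell markers, with 6 of 8 at level on each array, summed to 8913 and 7096 in wild type and to 2774 and 2157 in the labelled knockout. Eosinophil markers (4 of 4 at level) summed to 1345 and 1385 in wild type (vehicle, heme) and to 897 and 636 in the labelled knockout. Of 7 fibroblast and endothelial markers 2 or 3 were at level, with sums between 179 and 225. The erythroid list had at most 1 of 3 measured markers at level, and the mast cell and basophil (6 measured), B cell (4) and T and NK cell (6) lists had 0 on every array. In such bulk samples, fewer cells of a type cannot be told apart from less RNA per cell.

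NADPH is the electron donor of the cell's antioxidant and biosynthetic enzymes. It is made in the cytosol by the pentose phosphate pathway, malic enzyme and isocitrate dehydrogenase. Thioredoxin reductase uses it to reduce thioredoxin, which in turn reduces peroxiredoxins, while NQO1 uses NADH or NADPH to reduce quinones. Many of these genes are activated by the transcription factor NRF2, which pairs with small Maf proteins at antioxidant response elements. Bach1 pairs with the same small Maf proteins, binds related elements as a repressor, and is released from DNA when it binds heme.

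The promoters show which of these genes carry such an element close to the start. Windows of 250 bases before to 50 bases after each RefSeq start (assembly GRCm38.p6) were searched on both strands for the element core TGACNNNGC, for TGACTCA, the shorter core shared with AP-1 sites, and for TGACTCAGC, which holds both. All 10 genes had at least 1 window, 15 in all. The element core was present in 5 of the 15 (Me1, Pgd, Prdx1, Srxn1 and Txnrd1), against 12.4% of all 32851 windows. The shorter core was present in 3 (Me1, Prdx1 and Srxn1), against 5.20% of all windows, and the joint motif in 2 (Me1 and Prdx1), against 0.454%. A match describes the letters only and is no evidence of binding. The windows of Nqo1, Taldo1, Tkt, Idh1 and Txn1 held no match. Sequence outside the windows was not searched, so an element farther from the start of Nqo1 or another gene would be missed. The sequences that follow are the stretches of the Me1, Srxn1 and Prdx1 windows that hold matches of these motifs, and that of Nqo1, whose heme difference was the next largest after Me1, for contrast. Capitals mark a match on either strand, each stretch is written 5′ to 3′ on the gene's strand, and each ends at the base before the start except that of Me1, which runs 3 bases past it to complete the match.
Me1 (chr9:86695912-86696061, minus strand): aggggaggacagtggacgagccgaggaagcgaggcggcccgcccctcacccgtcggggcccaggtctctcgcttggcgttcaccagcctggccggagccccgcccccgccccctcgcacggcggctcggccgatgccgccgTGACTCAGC
Srxn1 (chr2:152105374-152105523, plus strand): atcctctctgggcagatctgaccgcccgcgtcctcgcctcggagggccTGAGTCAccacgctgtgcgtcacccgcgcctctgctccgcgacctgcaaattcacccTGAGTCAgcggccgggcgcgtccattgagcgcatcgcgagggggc
Prdx1 (chr4:116685349-116685598, plus strand): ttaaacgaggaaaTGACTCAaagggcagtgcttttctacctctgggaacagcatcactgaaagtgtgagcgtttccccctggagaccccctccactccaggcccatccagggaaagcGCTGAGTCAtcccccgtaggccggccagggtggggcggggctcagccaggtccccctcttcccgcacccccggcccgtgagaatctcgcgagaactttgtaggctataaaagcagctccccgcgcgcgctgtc
Nqo1 (chr8:107403206-107403355, minus strand): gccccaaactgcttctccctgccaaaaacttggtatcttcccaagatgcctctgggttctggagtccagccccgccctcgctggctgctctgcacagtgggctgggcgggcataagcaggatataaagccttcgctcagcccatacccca
In Me1 the joint motif begins 6 bases before the start. In Srxn1 the shorter core begins 102 and 45 bases before the start, and in Prdx1 the joint motif begins 133 bases before it. Srxn1 has a further element core 29 bases after the start, which is not printed. The core of Txnrd1 lies 92 bases before the start of its second window along the gene, and that of Pgd 4 bases after the start of its second window.

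With heme, 8 of the 10 genes had a higher signal in both genotypes, as did 30.7% of all genes at level, and Txn1 and Idh1 did not. The increase was 2-fold or more in 2 genes, Me1 and Nqo1, in each genotype. Both reached the level filter on the heme arrays alone, so that they could count only as higher, and this count is a description. Among genes at level, the share 2-fold higher with heme was 1.17% for wild type and 1.2% for the labelled knockout, and 0.421% of the genes at level in both were 2-fold higher in both. At a 1.5-fold rule, Txnrd1 and Srxn1 joined in both genotypes, which makes 4 of 10 against 1.91% of all genes. Taldo1 passed 1.5-fold in the labelled knockout, so the counts were 4 of 10 for wild type (4.99% of all genes) and 5 of 10 for the labelled knockout (5.03%). None was 2-fold lower in either genotype (0.891% and 0.452% of all genes, wild type first) or 1.5-fold lower (4.73% and 3.07%). The median log2 difference of the 10 genes was 0.46 for wild type and 0.61 for the labelled knockout, while over all genes it was -0.004 and -0.02.

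**Figure D1:**
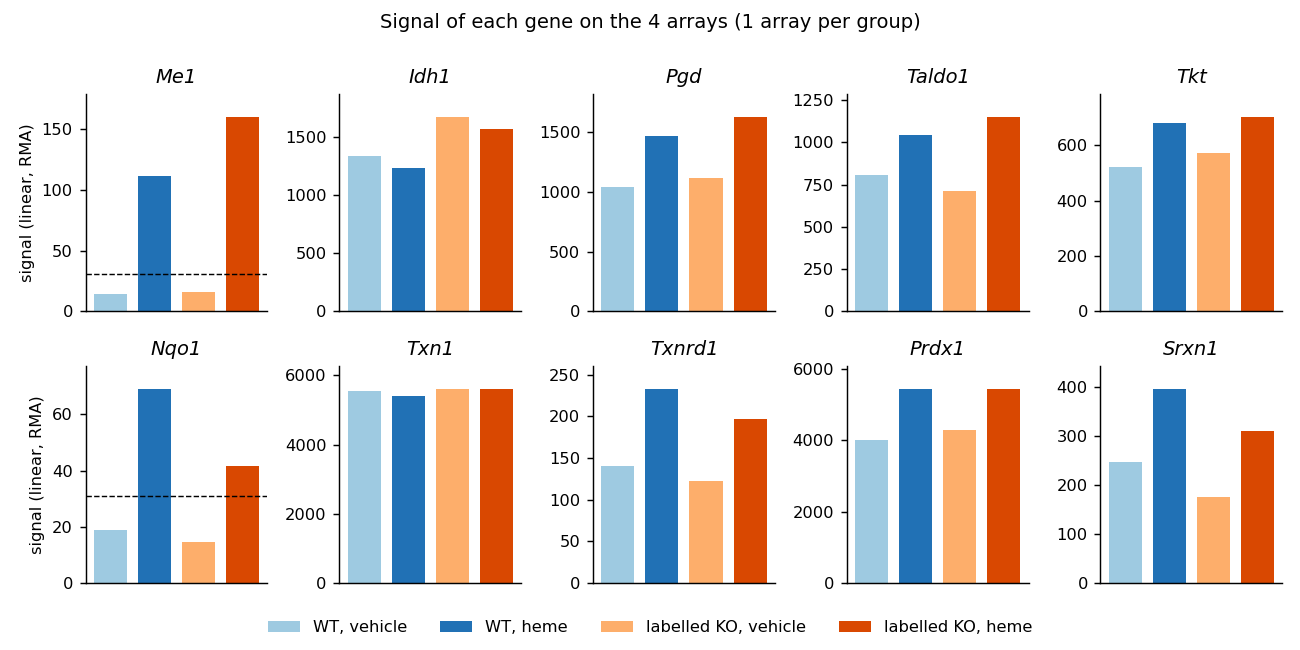
Linear RMA signal (vertical axis, separate scale per panel, from 0) of each of the 10 genes on the 4 arrays, 1 bar per array. The dashed line in the Me1 and Nqo1 panels marks the level filter of 30.96. Both heme bars stand above both vehicle bars in every panel except Idh1 and Txn1, a pattern of 21.4% of all genes at level.

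Me1 encodes cytosolic malic enzyme, which makes NADPH while turning malate into pyruvate. In wild type its signal was 14.6 with vehicle and 111 with heme, and in the labelled knockout 15.9 and 160. Both vehicle arrays were below the level filter and both heme arrays well above it. The heme difference was 7.63-fold for wild type and 10.0-fold for the labelled knockout. A second probe set annotated to Me1 alone read 10.9, 78.9, 18.1 and 129 in the same order, 7.25-fold and 7.12-fold higher with heme. The probe sets differed on which genotype had the larger fold. Because vehicle signals were low, the size of the fold depends on how background is treated: with 32 added to every signal it was 3.08-fold and 4.01-fold.

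Idh1, which encodes the cytosolic NADP-dependent isocitrate dehydrogenase, did not follow Me1. Its signals were 1337 and 1234 in wild type (vehicle, heme) and 1672 and 1568 in the labelled knockout. Heme arrays were lower by a log2 difference of -0.12 for wild type and -0.09 for the labelled knockout, smaller in size than the genotype difference. Both labelled knockout arrays stood above both wild-type arrays, by 1.25-fold in vehicle and 1.27-fold with heme. This order was also that of Txn1 and of 17.1% of all genes at level.

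The 3 pentose phosphate genes had small differences of the same direction. Pgd, the dehydrogenase that makes the pathway's second NADPH, read 1044 and 1468 in wild type and 1114 and 1624 in the labelled knockout. Heme was higher by 1.41-fold and 1.46-fold. Increases of that size or more occurred in 6.93% and 5.90% of genes at level, with decreases left out. Taldo1 encodes transaldolase of the non-oxidative branch. It read 809 and 1045 in wild type, a 1.29-fold difference, and 714 and 1148 in the labelled knockout, a 1.61-fold difference. Of the 8 genes higher with heme in both genotypes, Taldo1 had the largest ratio between genotypes toward the labelled knockout after Me1, 1.24-fold against 1.32-fold. Tkt, transketolase of the same branch, read 523 and 682 in wild type and 573 and 702 in the labelled knockout, with folds of 1.30 and 1.23. For all 3 genes both heme arrays exceeded both vehicle arrays, a pattern that 21.4% of all genes at level shared, while 19.5% had both below.

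Nqo1 encodes the quinone reductase NQO1, a widely used readout of NRF2 activity. In wild type it read 18.7 with vehicle and 69.0 with heme, and in the labelled knockout 14.8 and 41.7. As with Me1, the vehicle arrays were below the level filter and the heme arrays above it. The heme difference was 3.68-fold for wild type and 2.82-fold for the labelled knockout. With 32 added to every signal the folds became 1.99 and 1.58 and no longer reached 2-fold. With heme the labelled knockout array was the lower one, and in vehicle both arrays were too low to compare.

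Within the thioredoxin system, the reductase and the repair enzyme had larger heme differences than thioredoxin itself. Txnrd1, the NADPH-dependent selenoenzyme that reduces thioredoxin, read 141 and 233 in wild type and 123 and 197 in the labelled knockout, or 1.65-fold and 1.60-fold higher with heme. Srxn1, sulfiredoxin, which repairs overoxidised peroxiredoxins, read 247 and 395 in wild type and 176 and 309 in the labelled knockout, or 1.60-fold and 1.76-fold higher. For both genes, both heme arrays stood above both vehicle arrays, a pattern of 21.4% of all genes at level. The share of genes at level with an increase as large as theirs lay between 2.24% and 3.54%, with decreases of that size left out.

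Prdx1, the abundant cytosolic peroxiredoxin that removes hydrogen peroxide, read 4018 and 5428 in wild type and 4298 and 5433 in the labelled knockout. The heme folds were 1.35 and 1.26, below the 1.5-fold rule. Both heme arrays stood above both vehicle arrays, as they did for 21.4% of all genes at level. A second probe set annotated to Prdx1 alone read 3237, 4748, 3579 and 4902 in the same order and gave folds of 1.47 and 1.37. Txn1, cytosolic thioredoxin and the substrate of Txnrd1, read 5559 and 5406 in wild type and 5605 and 5601 in the labelled knockout. Its highest and lowest arrays differed by 1.04-fold, the narrowest range of the 10 genes. The log2 heme differences of Txn1 were -0.04 and -0.001, and their sign turned when differences were centred by lowess. Whether a signal of this height is compressed was not tested.

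**Figure D2:**
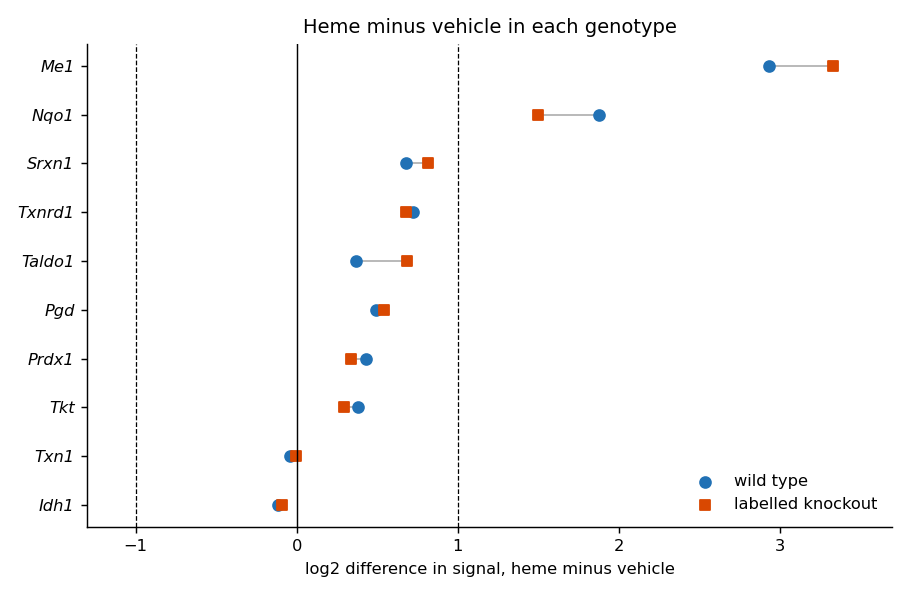
Log2 difference in signal, heme minus vehicle (horizontal axis), of the 10 genes in wild type (circles) and the labelled knockout (squares), 1 array per group. Dashed lines mark 2-fold. Me1 and Nqo1 lie past 2-fold in both genotypes, Idh1 and Txn1 lie near 0 (the sign of Txn1 turns under lowess centring), and the other 6 lie between.

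The heme comparisons of the 2 genotypes share no array. Across the 10 genes the log2 heme differences of the 2 genotypes had a Pearson r of 0.98 and a Spearman rho of 0.85, and without Me1 and Nqo1 r was 0.91 and rho 0.71. Over all 11155 genes at level r was 0.43 and rho 0.32. These values describe the genes on these arrays, and genes are not independent replicates. Each treatment was also a single preparation per genotype, so a handling difference common to both heme cultures cannot be told apart from heme. The summed neutrophil marker signal was higher with heme in both genotypes, as given above. Fcgr1 and Mertk were lower, but the median log2 heme difference of the 7 macrophage markers was -0.02 for wild type and -0.002 for the labelled knockout. The part of these markers in these differences was not tested.

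**Figure D3:**
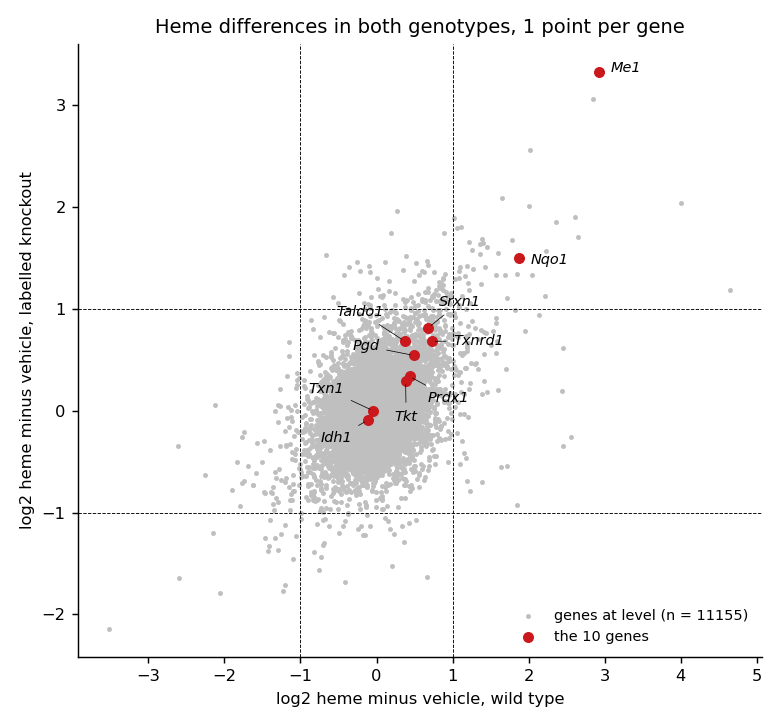
Log2 heme minus vehicle in wild type (horizontal) against that in the labelled knockout (vertical), 1 grey point for each of 11155 genes at level on any array and a red point for each of the 10 genes. Dashed lines mark 2-fold. Me1 and Nqo1 lie past 2-fold on both axes, and Idh1 and Txn1 lie near the centre.

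The difference between genotypes asks what loss of Bach1 does to these genes. In vehicle, 0 of the 8 genes at level differed by 2-fold, or by 1.5-fold, between the labelled knockout and wild type (of all genes, 0.525% were 2-fold higher and 1.14% lower, and 3.25% and 4.31% at 1.5-fold). The largest was Srxn1, 247 for wild type and 176 for the labelled knockout, 1.40-fold lower. Me1 and Nqo1 were below the level filter on both vehicle arrays, so a difference between genotypes could not be read there, and the second Me1 probe set read 10.9 for wild type and 18.1 for the labelled knockout. Hmox1 was 4.95-fold higher in the labelled knockout in vehicle. With heme in both cultures, 0 of 10 differed by 2-fold (0.519% of all genes higher, 0.973% lower). At 1.5-fold, Nqo1 alone was lower, by 1.66-fold, where 3.43% of all genes were lower and 3.38% higher. Me1 was 1.44-fold higher.

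Directions between genotypes split the 10 genes. Txnrd1 and Srxn1 were lower in the labelled knockout in both treatments, as were 28.7% of all genes at level. Me1 and Nqo1 were below the level filter on both vehicle arrays, so only their difference with heme was read. The log2 differences were -0.20 and -0.24 for Txnrd1 and -0.49 and -0.35 for Srxn1 (vehicle, heme). With heme Nqo1 was at -0.73 and Me1 at 0.52. Pgd, Tkt, Idh1, Prdx1 and Txn1 were higher in both treatments, as were 28.4% of all genes, by at most 0.35, with Prdx1 at 0.001 in heme. Taldo1 was lower in vehicle (-0.18) and higher with heme (0.14). The median over the 10 genes was 0.05 in vehicle and 0.05 with heme, and over all genes 0.01 and 0.001. Summed dendritic cell and eosinophil marker signals were lower in the labelled knockout in both treatments, and their part in these small differences was not tested.

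**Figure D4:**
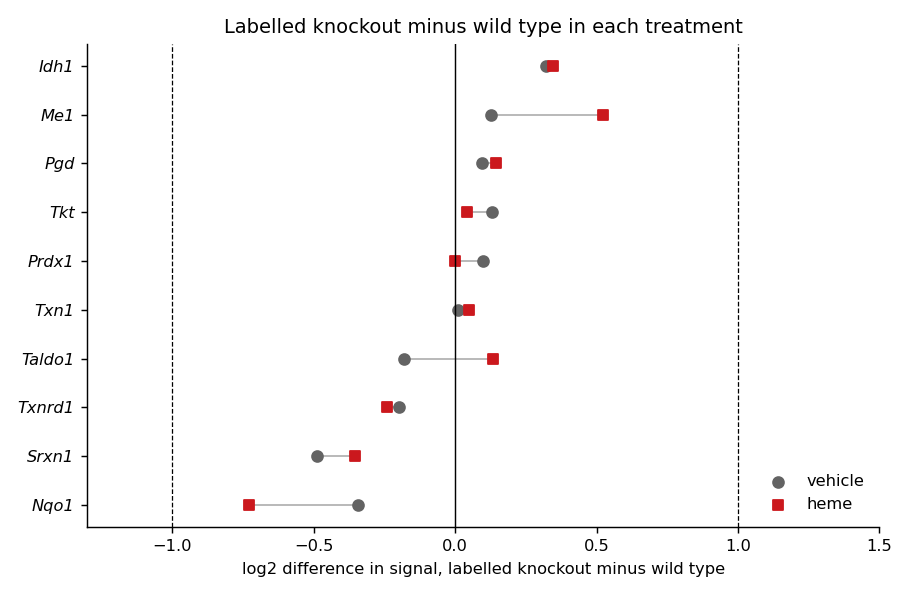
Log2 difference in signal, labelled knockout minus wild type (horizontal axis), of the 10 genes in vehicle (grey circles) and with heme (red squares), 1 array per group. Dashed lines mark 2-fold, which no gene reaches. Srxn1 and Txnrd1 are negative in both treatments, and Me1 and Nqo1 are below the level filter in vehicle.

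Whether the heme difference itself changed with genotype was read from the difference of the 2 heme differences, knockout minus wild type. None of the 10 genes reached 2-fold or 1.5-fold, where 1.17% of all genes were 2-fold higher and 0.879% lower, and 6.27% and 5.15% at 1.5-fold. The values ran from -0.38 for Nqo1 to 0.40 for Me1, with 0.32 for Taldo1 and 0.14 for Srxn1, and the other 6 lay between -0.10 and 0.05. The value of Me1 was -0.03 by its second probe set. By the same measure Hmox1 was at -2.24: its heme difference was 5.41-fold for wild type and 1.14-fold for the labelled knockout. Hmox1 read between 9047 and 10330 on every array but wild-type vehicle, and whether signals of that height are compressed was not tested.

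Other genes of these pathways were taken from lists fixed by name, chosen with earlier results of these data known. Of 18 other genes listed for NADPH and the pentose phosphate pathway, 16 were at level. The list also held genes whose enzymes do not make NADPH, such as Fasn and Nadk. With heme in wild type, 0 were 2-fold or 1.5-fold different. Of all genes, 4.99% were 1.5-fold higher there and 4.73% lower. The median log2 difference of the list was 0.05. In the labelled knockout 1 of 16 was 2-fold higher with heme, against 1.2% of all genes. This was the mitochondrial folate enzyme gene Mthfd2, which read 90.6 and 77.9 in wild type and 30.5 and 78.7 in the labelled knockout. The labelled knockout vehicle array was the low one there, and the difference between genotypes in vehicle was 2.97-fold. Nadk, the kinase that makes NADP from NAD, passed 1.5-fold in the labelled knockout, from 176 to 282, and read 180 and 250 in wild type. H6pd, the pentose phosphate dehydrogenase of the endoplasmic reticulum, read 65.0 and 95.3 in wild type and 72.8 and 109 in the labelled knockout. G6pdx, the first enzyme of the pathway, was not analysed here. Nadk and H6pd were picked after their values were seen.

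Of 28 other thioredoxin, peroxiredoxin and related genes, 27 were at level for wild type and 26 for the labelled knockout. With heme 0 reached 2-fold in either, where 1.17% and 1.2% of all genes were 2-fold higher and 0.891% and 0.452% lower. The medians were 0.04 and 0.08. At 1.5-fold 2 were higher for wild type and 3 for the labelled knockout, and none was lower. Of all genes, 4.99% and 5.03% were 1.5-fold higher, and 4.73% and 3.07% lower. The thioredoxin-like gene Txnl1 was among those higher in both, at 299 and 482 in wild type and 285 and 538 in the labelled knockout. Nucleoredoxin, Nxn, was the other in wild type, at 31.4 and 52.2. Glutaredoxin, Glrx, and the selenoprotein synthesis factor gene Secisbp2 passed in the labelled knockout, from 344 to 560 and from 60.7 to 92.0. Prdx4, the peroxiredoxin of the secretory pathway, had the lowest value in wild type, 510 and 341, and read 467 and 354 in the labelled knockout. These genes were named after their values were seen. Prdx5 and Prdx6 were on the list but not analysed here.

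Other quinone, carbonyl and NRF2-linked genes had the highest medians with heme, 0.80 for wild type and 0.62 for the labelled knockout. In wild type 7 of 24 at level were 2-fold higher and 0 lower, where 1.17% of all genes were higher and 0.891% lower. In the labelled knockout the counts were 7 of 25 and 0, where 1.2% were higher and 0.452% lower. Both counts of higher genes include the glutathione synthesis gene Gclm, at 188 and 777 in wild type and 326 and 820 in the labelled knockout. They also include the transporter Abcc1, at 145 and 467 and at 170 and 430, and the glutathione transferase Gsta3, at 21.1 and 66.5 and at 28.6 and 122. Past 2-fold in wild type and not in the labelled knockout were Hmox1, the cystine transporter Slc7a11, at 277 and 799 and at 222 and 381, the heme transporter Slc48a1 and the aldo-keto reductase Akr1b8, at 27.0 and 61.6 and at 60.7 and 93.4. In the labelled knockout alone, Blvrb (biliverdin reductase), Gclc (glutathione synthesis), Cat (catalase) and Akr1c13 (aldo-keto reductase) were past 2-fold. The folds, wild type first, were 1.81 and 2.39 for Blvrb and 1.93 and 2.21 for Gclc. They were 1.88 and 2.11 for Cat and 1.08 and 2.00 for Akr1c13. Gclc and Cat were thus just under 2-fold in wild type, and the contrast was not tested. Cat read 385 and 724 in wild type and 447 and 942 in the labelled knockout. Gsta3 was below the level filter on both vehicle arrays and Akr1b8 on the wild-type one, so in those comparisons they could count only as higher. Between genotypes, 3 of 23 were 2-fold higher in the labelled knockout in vehicle, namely Hmox1, Akr1b8 and Slc48a1, against 0.525% of all genes. With heme 1 of 25 was 2-fold lower, Slc7a11, against 0.973% of all genes. Nqo2, the relative of Nqo1 that does not use NADPH, read 103 and 99.4 in wild type and 79.2 and 90.2 in the labelled knockout. Nqo2 and Akr1c13 were named after their values were seen. Akr1b3 was on the list but not analysed here.

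Among 14 regulators of NRF2 and Bach1, 13 were at level. In each genotype 1 was 2-fold higher with heme, against 1.17% of all genes for wild type and 1.2% for the labelled knockout. The gene was Sqstm1, which encodes p62, a protein that binds the NRF2 inhibitor KEAP1. It read 345 and 1028 in wild type and 399 and 1007 in the labelled knockout. Nfe2l2, the gene of NRF2, read 1497 and 1282 in wild type and 1087 and 1132 in the labelled knockout. Keap1 read 68.9 and 105 in wild type and 90.9 and 100.3 in the labelled knockout. The small Maf gene Mafg had heme differences of 0.30 and 0.31. Nfe2l2, Keap1 and Mafg were picked after their values were seen.

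**Figure D5:**
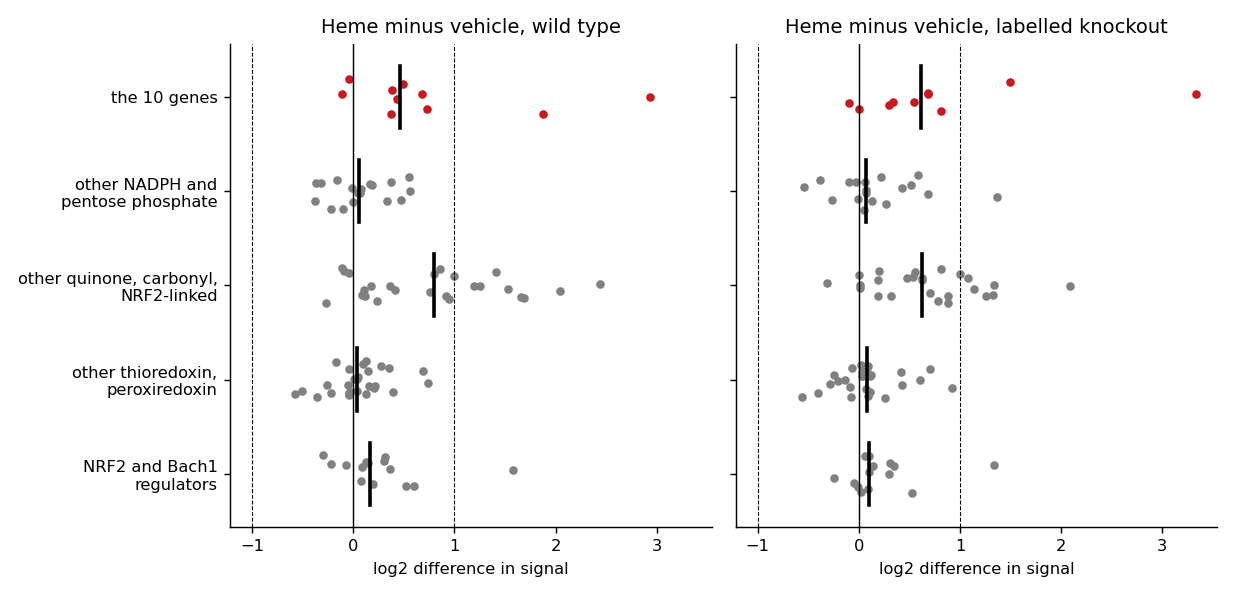
Log2 heme minus vehicle (horizontal axis) in wild type (left) and the labelled knockout (right) for the 10 genes (red) and 4 lists of related genes (grey), 1 point per gene, with vertical spread for legibility only and black bars at the medians. Dashed lines mark 2-fold. The NRF2-linked list has medians of 0.80 and 0.62, and the lists of other NADPH and other thioredoxin genes have medians below 0.1.

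Genes with a similar pattern over the 4 arrays were found by Euclidean distance between log2 values centred on each gene's mean, among 11154 other genes at level. Left out of naming were predicted genes, small RNAs, receptor and immunoglobulin gene families and clone names, by the form of the symbol. That filter also dropped every symbol that begins with Tra, Trb or Rn, so an unnamed gene may lie nearer than those given. For Me1 the nearest named genes were Uchl1 (distance 0.84), Treml4 (1.06) and Layn (1.20). For Nqo1 the nearest named gene was Clec4e, a pattern recognition lectin gene, at 0.12, which read 184, 661, 156 and 395. Cxcl3 (0.42) and Saa3 (0.45) followed. For Srxn1 they were Ly6a2 (0.07), F5 (0.11) and Fam110a (0.11), and for Txnrd1 Vegfd (0.04), Tuba4a (0.06) and Ppil1 (0.06). Vegfd and Ppil1 reached the level filter on the wild-type heme array alone, and Uchl1 on the heme arrays alone.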

How the data were processed

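Total RNA (RNeasy mini kit, per the labels' protocols) was labelled with the Ovation PicoSL kit and hybridised to a mouse gene array. The deposited values are linear intensity signals of 35556 probe sets after RMA, per the submitters' processing notes, with no detection call. The series' design text describes sorted progenitors, another RNA kit and ArrayStar, unlike the sample labels, which were followed here.

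Of the probe sets, 21789 had a single annotated symbol, 1621 several and 12146 no listing, and 21698 of the first matched the RefSeq table (GRCm38.p6) by Entrez number. The brightest probe set per gene, by mean log2 over the 4 arrays, was kept, which left 19938 genes. No scaling or offset was added. Comparisons are differences of log2 signal between arrays. A gene was called at 2-fold or more if at least 1 of its arrays had a signal at or above the overall median. The rule for naming took the 10 members, up to 6 per list and comparison at 2-fold, Bach1, Hmox1 and Spic, and 3 nearest genes for each of 4 members, and genes named outside it were picked after their values were seen: Akr1c13, Nqo2, Nadk, H6pd, Txnl1, Nxn, Glrx, Secisbp2, Prdx4, Nfe2l2, Keap1, Mafg, and the markers Lyz2, Fcgr1 and Mertk. Spic, a target of Bach1, read 17.0 and 429 in wild type and 298 and 679 in the labelled knockout. Fasn was named only to describe the content of its list. Members and lists were chosen with earlier results of these data known. Other settings tried were thresholds of 1.5-fold and 3-fold, dropping the level filter or raising it to the 75th percentile (signal 106), adding 32 before log2, repeating quantile normalization, lowess centring and averaging all probe sets of a gene. The software was pandas 2.3.3 and numpy 2.4.6 under Python 3.11.15, with lowess from statsmodels 0.14.6 and figures from matplotlib 3.10.9.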

Additional observations from a re-analysis of the deposited data

Results flagged for a closer look

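Several genes had differences of opposite direction in the 2 genotypes or the 2 treatments, each from single arrays, and none of these contrasts was tested. Values are log2, and the last value of each is the difference of the 2 heme differences, labelled knockout minus wild type. Among the 10 genes only Taldo1 did so: the labelled knockout minus wild type was -0.18 in vehicle and 0.14 with heme (0.32). Mthfd2 had a heme difference of -0.22 for wild type and 1.37 for the labelled knockout, and a genotype difference of -1.57 in vehicle and 0.02 with heme (1.59). The heme difference, wild type first, was 0.32 and -0.05 for Bach1 (-0.37), -0.22 and 0.06 for Nfe2l2 (0.28), and -0.05 and 0.19 for Nqo2 (0.23). The genotype difference in vehicle and with heme was 0.23 and -0.12 for Abcc1 (-0.35), -0.14 and 0.26 for Blvrb (0.40), -0.002 and 0.19 for Gclc (0.19), 0.21 and -0.03 for Sqstm1 (-0.24) and 0.13 and -0.37 for Layn (-0.50). It was -0.44 and 0.46 for Akr1c13 (0.90), -0.28 and 0.22 for Glrx (0.50), 0.37 and -0.11 for Nxn (-0.48), 0.40 and -0.06 for Keap1 (-0.46), and -0.27 and 0.12 for Secisbp2 (0.38). It was -0.09 and 0.18 for Mertk (0.27), -0.07 and 0.16 for Txnl1 (0.23), -0.03 and 0.18 for Nadk (0.21), and -0.12 and 0.05 for Prdx4 (0.18).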

How the results depend on the processing

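Counts of the 10 genes past the fold rule changed with the rule, the level filter and the offset. With heme in wild type, 2 genes became 4 at 1.5-fold, 1 with the 75th percentile filter and 1 with 32 added to each signal. In the labelled knockout, 2 became 5 at 1.5-fold and 1 at 3-fold, with the 75th percentile filter and with 32 added. Nqo1 is the gene lost each time: at 3-fold because its fold in the labelled knockout was 2.82, and under the filter or the offset because its signals were low. Between genotypes with heme, 0 became 1 at 1.5-fold. The other counts kept their value, and no called difference turned its sign. Of 400 values of single genes under the alternatives, 389 stayed on their side of the rule, 5 dropped below it and 6 passed it. The other fold thresholds and level filters leave the differences themselves unchanged, so under them only a call could change. These counts are a description. Signs of uncalled values turned for Txn1 with heme in both genotypes (0.02 and 0.01 under lowess centring), and for the difference of the 2 heme differences of Pgd (-0.01) and Txn1 (-0.01) under lowess centring and of Idh1 under lowess centring (-0.04) and repeated quantile normalization (-0.06). Without replicates, leaving out an array was not possible. The files hold no background values, so the distance of the low Me1 and Nqo1 signals from background is not known.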
